A study of Homo sapiens with 8 samples.

Results

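The cytochrome P450 genes of A549 cells were examined for acetylation of histone H3 at lysine 27 (H3K27ac), a mark of active promoters and enhancers, with and without NRF2 knockdown. Members were the protein-coding genes with a GENCODE symbol made of CYP, a family number, 1 or 2 subfamily letters and a gene number. This rule found 56 genes among 20162 protein-coding genes. Peaks of all libraries were merged wherever they overlapped by 1 bp or more, and 74 of the 49186 merged regions overlapped a member gene extended by 20 kb on each side. The regions within reach of a member were 24 at the start of a coding transcript, 9 over an exon, 21 in introns and 20 between genes. Of the start regions, 7 held the start of another gene alone and 2 that of a member and of another gene. A total of 9 of the 74 regions lay within reach of several members.

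A549 is a human lung adenocarcinoma line with mutated KEAP1, the protein that normally drives NRF2 to degradation, so NRF2 stays active in it. Control siRNA was transfected in 3 samples and NRF2 siRNA in 3, and chromatin was collected 48 h after transfection in both groups. The NRF2 siRNA numbered 28 was used in replicate 1 and the one numbered 30 in replicates 2 and 3. All 6 libraries come from this 1 cell line.

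Cytochrome P450 enzymes are heme proteins that use oxygen and electrons from a reductase to hydroxylate small molecules. Some families clear drugs, carcinogens and other foreign compounds, and others make or break down steroids, bile acids, vitamin D, retinoic acid and the lipid mediators derived from arachidonic acid. In lung, P450 enzymes are known for activating compounds of tobacco smoke. NRF2 acts by binding the antioxidant response element together with a small MAF protein, and its classic targets are antioxidant and detoxification genes.

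The lists held 27941, 34747 and 41571 peaks in control libraries 1, 2 and 3 and 23885, 34986 and 39108 in the NRF2 siRNA libraries. The peak names of replicate 1 of both groups lack the flow cell name that those of replicates 2 and 3 carry, and per the study these libraries were sequenced less deeply. The siRNA 28, this batch and its depth cannot be told apart. Of 5 epithelial marker genes, 4 had a start called in every library. The other, KRT19, a keratin gene, had its start region at 0, 10.4 and 8.6 with control siRNA and 66.5, 84.3 and 73.6 with NRF2 siRNA, a rise past the threshold (limma adjusted p = 0.00677), and its part in other results was not tested. A called start was found for 0 of 4 alveolar type 2, 0 of 3 leukocyte and 0 of 2 endothelial markers, and in some libraries for 1 of 3 hepatocyte and 1 of 3 fibroblast markers. The start of NFE2L2, the gene of NRF2, was called in all 6 libraries, and since siRNA acts on the messenger RNA, this mark does not check the knockdown. At the start of NQO1, a classic NRF2 target, the region stood at the percentiles 99.3, 99.1 and 99.4 of the lists with control siRNA and 95.1, 87.2 and 94.5 with NRF2 siRNA (limma adjusted p = 0.0508; 0.0223 with the replicate block), where a percentile is the share of a library's peaks with a fold enrichment at or below that of the region.

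Most cytochrome P450 genes had no called H3K27ac peak at their start in this line. A start was called where a region lay within 1 kb of the start of a coding transcript. For 12 genes, or 21.4%, the start was called in all 6 libraries, for 8, or 14.3%, in some of them, and for 36, or 64.3%, in none. Among all protein-coding genes these shares were 39.7%, 20.3% and 40.0%. Counting only peaks with a q-value of at most 1e-05 left 5 genes with a start called in every library. No region at all lay within 20 kb of 16 members, namely CYP4Z1, CYP4A22, CYP2J2, CYP2C8, CYP11A1, CYP4F22, CYP4F2, CYP2A13, CYP27A1, CYP2D6, CYP8B1, CYP2U1, CYP21A2, CYP7A1, CYP11B1 and CYP11B2. CYP2D6, CYP21A2, CYP11B1 and CYP11B2 have near-identical copies or pseudogenes, where reads of low mapping quality were dropped, so the absence of a peak there is uncertain. By main substrate, starts called in every library were 3 of 18 xenobiotic, 3 of 14 fatty acid and eicosanoid, 0 of 6 steroid hormone, 1 of 7 cholesterol and bile acid, 2 of 3 vitamin D, 1 of 4 retinoid and 2 of 4 less well defined genes.

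**Figure D1:**
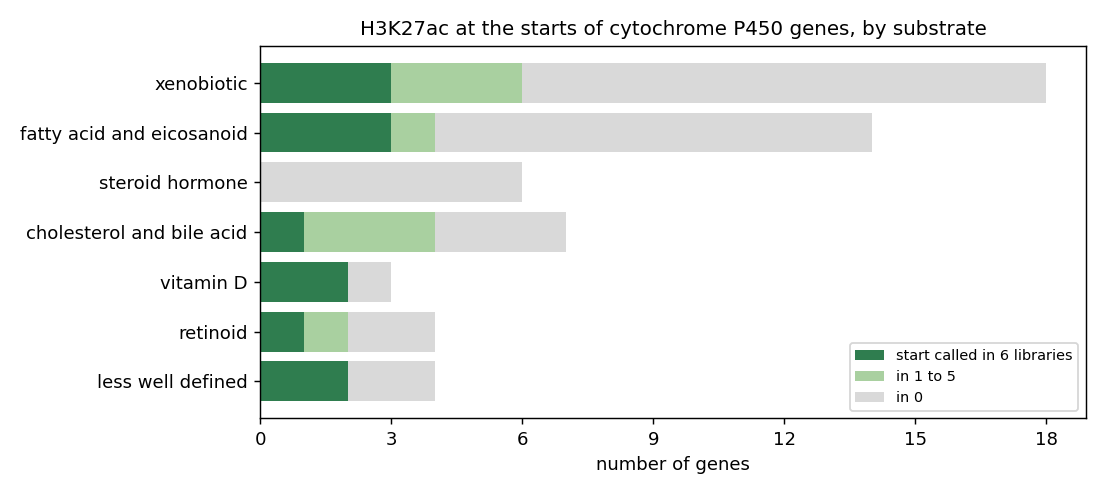
Horizontal bars give the number of cytochrome P450 genes (x axis) in each substrate group (y axis), split by whether the start was called in all 6 libraries, in 1 to 5 or in 0. The 18 xenobiotic genes form the longest bar, with 3 starts called in every library, and the 6 steroid hormone genes have 0.

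In the main fit, which has no replicate block, NRF2 knockdown lowered the rank of 3 cytochrome P450 regions and raised 0. The lowered regions lay at the starts of CYP4F11 and CYP4F3 and in an intron of CYP19A1. Each region was given, in each library, the percentile of its highest fold enrichment among all peaks of that list, with 0 where the library had no peak there. For the test, each rank was replaced by the corresponding quantile of the normal curve, here called its score, so a change of 1 is about 1 standard deviation among regions. Uncalled regions shared the lowest rank, and this tied score depended on how many of them a library had. A region called in neither replicate 1 library thus had a change of 0.25 in that pair. Of the 74 regions, 51 were called in at least 3 libraries and tested with limma, among 32673 such regions genome-wide, and 23 were not tested. The 3 lower regions of 51 stood beside a background of 3.39% lower and 2.01% higher over all tested regions (limma, adjusted p under 0.05). An unadjusted p under 0.05 (limma) was found for 11 member regions, 6 lower and 5 higher. The share of all tested regions at this unadjusted level was not counted, so such counts have no background here. Without control siRNA replicate 2 there were 0 lower regions, although 5 had an unadjusted p under 0.05. There was 1 without control siRNA replicate 1 or 3 or NRF2 siRNA replicate 2 or 3, and there were 4 without NRF2 siRNA replicate 1. In the fit with a replicate block there were 5 lower regions and 1 higher, beside backgrounds of 6.62% and 5.72%. The 5 include a region between CYP4F8 and CYP4F3 and one upstream of CYP46A1, both called in control libraries alone. Within replicates 2 and 3, which share the batch and the siRNA, 5 were lower and 1 was higher, beside 6.04% and 5.26%. With lists of equal length 2 were lower and 1, near CYP27C1, was higher, beside 5.7% and 5.11%. The score change was negative in 29 and positive in 22 of the 51, with a median of -0.08 against 0.02 over all tested regions. Because each library is a bulk sample, fewer cells carrying the mark and less of it per cell cannot be told apart.

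**Figure D2:**
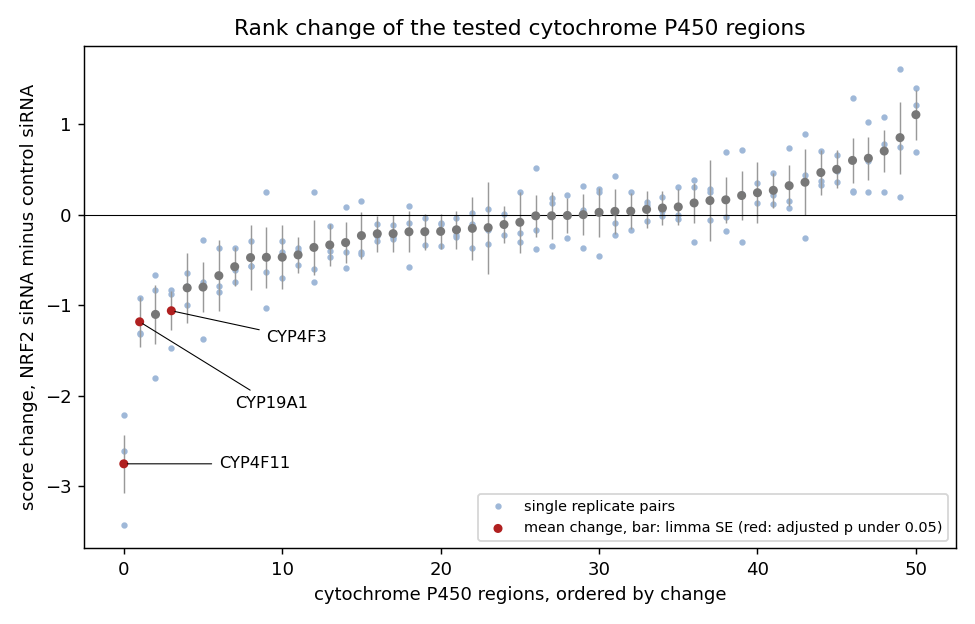
Each tested cytochrome P450 region (x axis, ordered by change) is shown with its mean change in normal score, NRF2 siRNA minus control siRNA (y axis), the limma standard error as a bar and the changes of the 3 replicate pairs as small points. The regions of CYP4F11, CYP19A1 and CYP4F3, at -2.75, -1.18 and -1.06, are marked in red as past the threshold.

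Calls were compared next. Cytochrome P450 regions called per library numbered 44, 53 and 63 with control siRNA, a mean of 53.3 ± 9.50 (SD, n = 3). They numbered 36, 47 and 52 with NRF2 siRNA, a mean of 45 ± 8.19 (SD, n = 3). Starts called numbered 15, 16 and 19 of 56 with control siRNA and 15, 17 and 19 with NRF2 siRNA, so the groups overlapped. Of the 74 regions, 31, or 41.9%, were called in all 6 libraries, against 34.2% of all merged regions, and 12 in a single library. Of the 74 regions, 15 were called in control libraries alone and 6 in NRF2 siRNA libraries alone, counting calls in any number of libraries. The same split over all merged regions was not counted, and the control lists were longer in replicates 1 and 3, so no result is drawn from it. A total of 4 were called in 3 control and 0 NRF2 siRNA libraries, where the background over all merged regions was 2.27%. In the other direction there were 0, with a background of 0.83%. Within replicates 2 and 3, where 2 libraries against 0 are enough, these counts were 8 and 2, beside 4.77% and 4.37% of all merged regions. Percentiles of the groups did not overlap in 10 tested regions that were lower and 2 that were higher with NRF2 siRNA, beside backgrounds of 12.8% and 7.39%. The 4 regions called in 3 control and 0 NRF2 siRNA libraries are among the 10. They reached the test through control libraries alone, so their percentiles could not overlap and no result is drawn from their p-values.

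The fatty acid and eicosanoid group held the largest change. Its CYP4F genes, clustered on chromosome 19, encode hydroxylases that act on the far end of fatty acids, leukotrienes and vitamin K. CYP4F11, whose enzyme hydroxylates long-chain fatty acids and vitamin K, had a strong start region in control cells (chr19:16044721-16047073, GRCh37). Its percentile was 99.4, 93.1 and 94.5 with control siRNA. In NRF2 siRNA libraries 1, 2 and 3 the region was not called, at 19.97 and at 18.2. The lowest control value thus lay far above the highest NRF2 siRNA value. The deposited fold enrichment was 15.5, 9.59 and 12.5 with control siRNA and 3.02 and 2.74 in the NRF2 siRNA libraries that called it. The peaks were also shorter, at 2353, 2170 and 2309 bp against 620 and 713 bp. The score fell by 2.75 (SE 0.319, limma adjusted p = 0.00677), in each of the 3 replicate pairs (-3.44, -2.21 and -2.61). The mean percentile was 95.7 ± 3.31 against 12.7 ± 11.1 (SD, n = 3 each; exact two-sided permutation p = 0.1, the smallest that 3 against 3 libraries can give). Without control siRNA replicate 2 the change was -2.94 and the adjusted p 0.0504.

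CYP4F3, which encodes the hydroxylase that inactivates leukotriene B4 in neutrophils, had a start region of similar rank in control cells (chr19:15748693-15754480). Its percentile was 96.7, 93.0 and 96.5 with control siRNA and 49.9, 74.0 and 82.6 with NRF2 siRNA, so the groups did not overlap. Unlike at CYP4F11, a peak was still called in every NRF2 siRNA library, with a fold enrichment of 3.88, 5.98 and 7.35 against 11.1, 9.54 and 14.0 in control. Its peaks covered 1733, 2074 and 2699 bp against 4718, 4592 and 4615 bp. The score fell by 1.06 (SE 0.218, limma adjusted p = 0.0289), in all 3 pairs (-1.48, -0.83 and -0.87). Leaving out NRF2 siRNA replicate 1 kept the call (adjusted p = 0.0405), and leaving out any of the other 5 libraries ended it, with adjusted p-values up to 0.119.

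**Figure D3:**
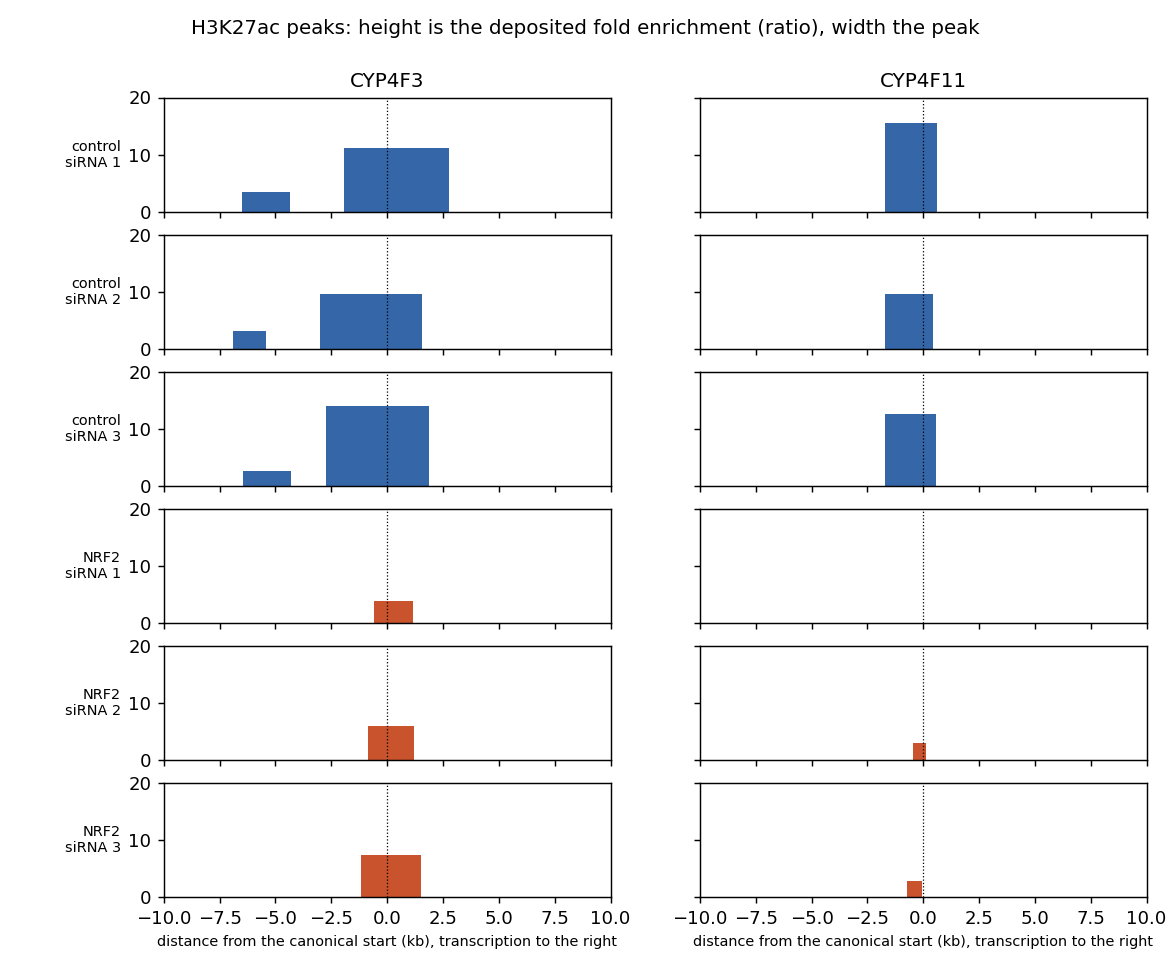
Peaks around CYP4F3 and CYP4F11 are drawn for each library, with distance from the canonical start in kb on the x axis and the deposited fold enrichment on the y axis, control siRNA in blue and NRF2 siRNA in red. At CYP4F11 the 3 control peaks reach 15.5, 9.59 and 12.5, and the NRF2 siRNA libraries have no peak, 3.02 and 2.74.

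A further region between CYP4F8 and CYP4F3 (chr19:15744786-15747418) was called with control siRNA in each library and with NRF2 siRNA in none. Its percentile was 33.0, 24.6 and 13.8 with control siRNA, and it did not pass the test (score change of -0.81, limma adjusted p = 0.259; 0.0308 with the replicate block). CYP4F8, a prostaglandin hydroxylase gene, had no called start. The start of CYP4F12 (chr19:15782944-15784667), which lies next to CYP4F3 in the cluster, was at 38.1, 55.1 and 72.0 with control siRNA and 23.9, 46.5 and 66.2 with NRF2 siRNA (-0.11, adjusted p = 0.816). At these starts the groups overlapped, while CYP4F2 and CYP4F22 had no region within 20 kb.

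The 10-base antioxidant response element was searched on both strands of each region, in the GRCh37 sequence. The CYP4F11 region held 10 matches in 2353 bp, and of the 3794 tested regions within 10% of its length 63.0% held any match and 0.0791% held as many. The CYP4F3 start region held 3 matches, and 39.4% of the 1564 regions of like length held as many. A match in the 250 bases before the canonical start was found in 6 of 55 cytochrome P450 genes, or 10.9%, among them CYP24A1, CYP26C1, CYP2C19, CYP4F3 and CYP4F8, against 12.3% of 19540 protein-coding genes. A match is a run of letters, and NRF2 binding was not measured in these libraries.

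The match upstream of CYP4F11 lies at -490 bp from the canonical start and is shown with 20 bases on each side, because the closest stretch near the CYP4F3 start is almost the same. For each CYP4F gene, the 50 bases most like it were taken from the 2 kb on either side of the canonical start, without gaps. This comparison was chosen after the values of CYP4F11 and CYP4F3 were seen. The stretches below lie outside exons and genes, at chr19:16045804-16045853 (plus strand) for CYP4F11, chr19:15751511-15751560 (minus strand) for CYP4F3, chr19:15725851-15725900 (minus strand) for CYP4F8, chr19:15783708-15783757 (minus strand) for CYP4F12 and chr19:16009028-16009077 (plus strand) for CYP4F2. Capitals mark the 10 bases at the place of the CYP4F11 match.
CYP4F11: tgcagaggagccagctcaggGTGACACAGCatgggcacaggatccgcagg
CYP4F3: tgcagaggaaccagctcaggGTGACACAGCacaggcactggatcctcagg
CYP4F8: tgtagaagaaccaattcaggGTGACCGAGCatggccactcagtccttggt
CYP4F12: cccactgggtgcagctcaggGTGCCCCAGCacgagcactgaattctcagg
CYP4F2: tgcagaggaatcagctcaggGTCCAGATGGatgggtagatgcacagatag

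The CYP4F3 stretch, at -171 bp from its start, shares 45 of 50 bases with that of CYP4F11, or 90%, and the same 10-base match. CYP4F8 shares 34 bases, or 68%, and keeps a match with the changes A6C and C7G, counted from 1 at the first capital. CYP4F12 shares 35 bases, or 70%, and CYP4F2 shares 32, or 64%. Neither has a match at that place, and the changes from CYP4F11 to CYP4F12 there are A4C and A6C. The best stretch of CYP4F22 shares 26 bases, or 52%. Of the other CYP4F genes, CYP4F3 had the stretch most like that of CYP4F11, and CYP4F8 has a match with no called start. How alike the sequence around these stretches is was not measured. A link between the stretches and the falls in rank was not tested.

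The other 9 matches of the CYP4F11 region form a tandem run in an intron of the gene (chr19:16044722-16044891, plus strand, overlapping 0 exons), with 4 of the 8 spacings at 20 bases. It is shown because it makes up most of the count of matches. Capitals mark the matches.
CYP4F11 intron run: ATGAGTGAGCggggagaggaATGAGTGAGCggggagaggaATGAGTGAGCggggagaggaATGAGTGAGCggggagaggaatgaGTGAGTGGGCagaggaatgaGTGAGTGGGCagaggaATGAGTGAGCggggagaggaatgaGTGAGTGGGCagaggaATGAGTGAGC

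In the rest of the fatty acid and eicosanoid group, CYP4V2, a fatty acid hydroxylase gene mutated in an inherited retinal dystrophy, had a start called in every library (chr4:187111710-187113495). Its percentile was 41.3, 72.6 and 80.7 with control siRNA and 18.1, 57.9 and 64.9 with NRF2 siRNA, which overlap (-0.33, adjusted p = 0.438). This region also holds the start of AC110771.1. The group had 8 regions, of which 7 were tested, with 2 lower, 0 higher and a median change of -0.33. CYP4A11, CYP4B1 and CYP4X1 had regions away from their starts.

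In the steroid hormone group, where no start was called, CYP19A1 had an acetylated region in an intron (chr15:51520175-51521467). CYP19A1 encodes aromatase, which makes estrogens from androgens. The region was 12754 bp from the nearest coding start. Its percentile was 40.4, 37.7 and 47.4 with control siRNA, and with NRF2 siRNA it was not called in libraries 1 and 2 and was at 0.3 in library 3. The groups did not overlap, and the score fell by 1.18 (SE 0.276, limma adjusted p = 0.0423), in all 3 pairs (-0.92, -1.32 and -1.31). With lists of equal length the change was -0.67 (adjusted p = 0.157), and leaving out any library other than NRF2 siRNA replicate 1 ended the call, with adjusted p-values up to 0.166. The region held 0 matches to the antioxidant response element, while 47.9% of tested regions of like length held any. Near CYP17A1, the gene of a hydroxylase on the way to androgens, the single region was the start of the neighbouring gene BORCS7.

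The xenobiotic group, with 32 regions around 18 genes, had 18 tested, of which 0 were lower, 0 were higher and the median change was -0.01. CYP2C18, a less studied member of the drug-oxidizing CYP2C family, had the strongest of these starts (chr10:96435128-96443709). Its percentile was 98.4, 97.2 and 98.7 with control siRNA and 97.0, 98.5 and 98.8 with NRF2 siRNA (0.04, adjusted p = 0.933). The start of CYP3A5, a drug-metabolizing enzyme of liver, gut and lung, was at 92.9, 96.7 and 93.8 with control siRNA and 86.9, 94.5 and 92.9 with NRF2 siRNA (-0.17, adjusted p = 0.696). At both, the groups overlapped.

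CYP1B1, which activates polycyclic hydrocarbons and is induced through the aryl hydrocarbon receptor, had 2 start regions and 2 others, all called in every library. The first start region, at chr2:38290852-38310987, was at 86.9, 90.4 and 92.6 with control siRNA and 91.2, 90.4 and 91.5 with NRF2 siRNA (0.09, adjusted p = 0.842). The other, at chr2:38332531-38338576, was at 89.7, 89.0 and 92.5 with control siRNA and 84.9, 87.2 and 85.8 with NRF2 siRNA. Percentiles did not overlap at this one, and it did not pass the test (-0.18, adjusted p = 0.642). CYP1A1, regulated by the same receptor, had its start called only in replicate 1 of each group, at 17.8 with control siRNA and 15.5 with NRF2 siRNA, and was not tested. CYP1A2 had no called start.

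CYP3A43 had its start at 1.0, 17.4 and 30.1 with control siRNA and, in NRF2 siRNA libraries 2 and 3, at 17.2 and 33.8 (-0.01, adjusted p = 0.989). The start of CYP3A4, the main drug-metabolizing P450 of liver, was not called. A region upstream of it, at chr7:99388105-99394651, was at 44.2, 36.6 and 47.0 with control siRNA and 54.0, 65.0 and 54.9 with NRF2 siRNA. It was 1 of the 2 tested regions with higher percentiles in every NRF2 siRNA library, and it did not pass the test (0.47, adjusted p = 0.304).

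Away from starts, an intronic region of CYP2B6, an enzyme that oxidizes bupropion and cyclophosphamide, was at 40.3, 25.0 and 30.9 with control siRNA and 4.0, 2.8 and 8.4 with NRF2 siRNA. The percentiles did not overlap, and the score change was -0.47 (adjusted p = 0.493). A region near CYP2A7, a close copy of the nicotine oxidase gene CYP2A6, was called in every control library, at 11.1, 0.4 and 15.8, and in no NRF2 siRNA library (chr19:41402272-41404194; -0.47, adjusted p = 0.487). Both regions were weak in all libraries, and reads of CYP2A7 and CYP2A6 may be split between the copies. CYP2C19, CYP2E1, CYP2F1, CYP2A6 and CYP3A7 had regions but no called start.

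In the cholesterol and bile acid group, 7 of 9 regions were tested, with 0 lower, 0 higher and a median change of -0.21. CYP51A1, the lanosterol demethylase of cholesterol synthesis, had the strongest start (chr7:91762221-91765455), at 92.8, 94.7 and 97.5 with control siRNA and 89.3, 91.8 and 95.0 with NRF2 siRNA (-0.21, adjusted p = 0.591). These values overlapped. The start of CYP46A1, which hydroxylates cholesterol in brain, was called in control libraries 2 and 3, at 25.9 and 59.1, and in NRF2 siRNA library 3, at 34.1 (-0.47, adjusted p = 0.462). Neither replicate 1 library called this start, where the tied score alone gave that pair a change of 0.25. A region upstream of it, in an intron of HHIPL1 (chr14:100136661-100137605), was called in every control library, at 26.4, 18.2 and 53.5, and in no NRF2 siRNA library. Its change of -1.10 did not pass the test (adjusted p = 0.0833; 0.0334 with the replicate block). It held 1 match to the antioxidant response element, and 43.1% of regions of like length held any.

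CYP39A1, a hydroxylase of bile acid synthesis, shares its start region with SLC25A27. This region was called in control library 3, at 18.2, and in NRF2 siRNA libraries 2 and 3, at 33.6 and 23.2 (0.60, adjusted p = 0.193). The start of CYP7B1, an oxysterol hydroxylase gene, was called in replicate 3 of each group, at 37.9 and 30.3, and was not tested. An intronic region of CYP7B1 was at 12.1 and 8.0 in control libraries 2 and 3 and at 34.8 and 38.3 in NRF2 siRNA libraries 2 and 3 (0.63, adjusted p = 0.159). Neither replicate 1 library called this intronic region or the CYP39A1 start. At both, the tied score alone gave that pair a change of 0.25, which is part of the mean change.

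The vitamin D genes held the cytochrome P450 start region with the highest mean control percentile. CYP24A1, whose enzyme inactivates vitamin D, lay in a domain of 83290 bp (chr20:52711978-52795267). The highest peak of this domain, which may lie away from the start, gives its percentile. Its percentile was 98.9, 98.8 and 99.5 with control siRNA and 99.0, 96.9 and 97.6 with NRF2 siRNA (-0.31, adjusted p = 0.482). Peaks covered 81154, 81662 and 83230 bp of it in control and 67110, 78464 and 82527 bp in NRF2 siRNA libraries. A second region upstream (chr20:52810260-52817101) was at 62.5, 58.8 and 67.7 with control siRNA and 14.2, 28.4 and 52.8 with NRF2 siRNA. Its percentiles did not overlap, and it did not pass the test (-0.57, adjusted p = 0.160).

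CYP2R1, which carries out the first hydroxylation of vitamin D in liver, had its start (chr11:14912418-14914362) at 46.9, 42.3 and 67.4 with control siRNA and 62.4, 68.7 and 76.4 with NRF2 siRNA (0.50, adjusted p = 0.196). The lowest NRF2 siRNA value lay below the highest control value. CYP27B1, which activates vitamin D in kidney, had no called start of its own, and the 4 regions around it held the starts of TSPAN31, CDK4, EEF1AKMT3 with METTL1, and TSFM. Of the 7 regions of this group, 6 were tested, with 0 lower, 0 higher and a median change of -0.16.

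In the retinoid group, 6 of 7 regions were tested, with 0 lower, 0 higher and a median change of -0.07. CYP26B1, which degrades retinoic acid, had its start (chr2:72371284-72378817) at 43.2, 49.6 and 36.9 with control siRNA and 31.2, 45.8 and 20.5 with NRF2 siRNA (-0.15, adjusted p = 0.849). Other regions of this gene had changes of opposite sign that did not pass the test. An intergenic one (chr2:72341589-72344477) was at 54.5, 82.8 and 72.2 with control siRNA and 89.0, 88.6 and 89.7 with NRF2 siRNA, which did not overlap (0.71, adjusted p = 0.110). Another intergenic one (chr2:72391346-72393574) was at 20.4, 1.2 and 0.3 with control siRNA. With NRF2 siRNA it was called in library 1 alone, at 3.7 (-0.14, adjusted p = 0.906). The intronic one (chr2:72364831-72366233) was at 33.3, 2.8 and 21.1 with control siRNA and was not called with NRF2 siRNA (-0.67, adjusted p = 0.352).

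CYP27C1, an enzyme that desaturates vitamin A in skin, had the largest positive change among tested cytochrome P450 regions. The region, within 1 kb of the start (chr2:127974623-127977188), was at 46.0 and 42.3 in control libraries 2 and 3 and not called in control library 1. With NRF2 siRNA it was at 42.1, 72.8 and 78.9. The groups overlapped at their edge, and the change of 1.11 missed the threshold (SE 0.275, adjusted p = 0.0520; 0.0167 with the replicate block). Of 14 alternative settings, 6 put it past the threshold as a rise. CYP26A1 and CYP26C1, the other retinoic acid hydroxylases, had no called start.

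Among the less well defined members, CYP20A1, an enzyme of unknown substrate, had its start (chr2:204102920-204104794) at 68.6, 76.4 and 91.6 with control siRNA and 57.3, 79.5 and 78.7 with NRF2 siRNA (-0.19, adjusted p = 0.684). CYP2S1, an enzyme of epithelia, had its start (chr19:41693847-41700399) at 51.4, 46.7 and 62.4 with control siRNA and 17.1, 45.7 and 52.9 with NRF2 siRNA (-0.19, adjusted p = 0.640). Both overlapped between groups. The region near CYP2W1 held the start of COX19, 1 region near CYP2S1 held that of AXL, and CYP2D7, often counted as a pseudogene of CYP2D6, had no called start. Of the 9 regions of this group, 5 were tested, with 0 lower, 0 higher and a median change of 0.06.

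**Figure D4:**
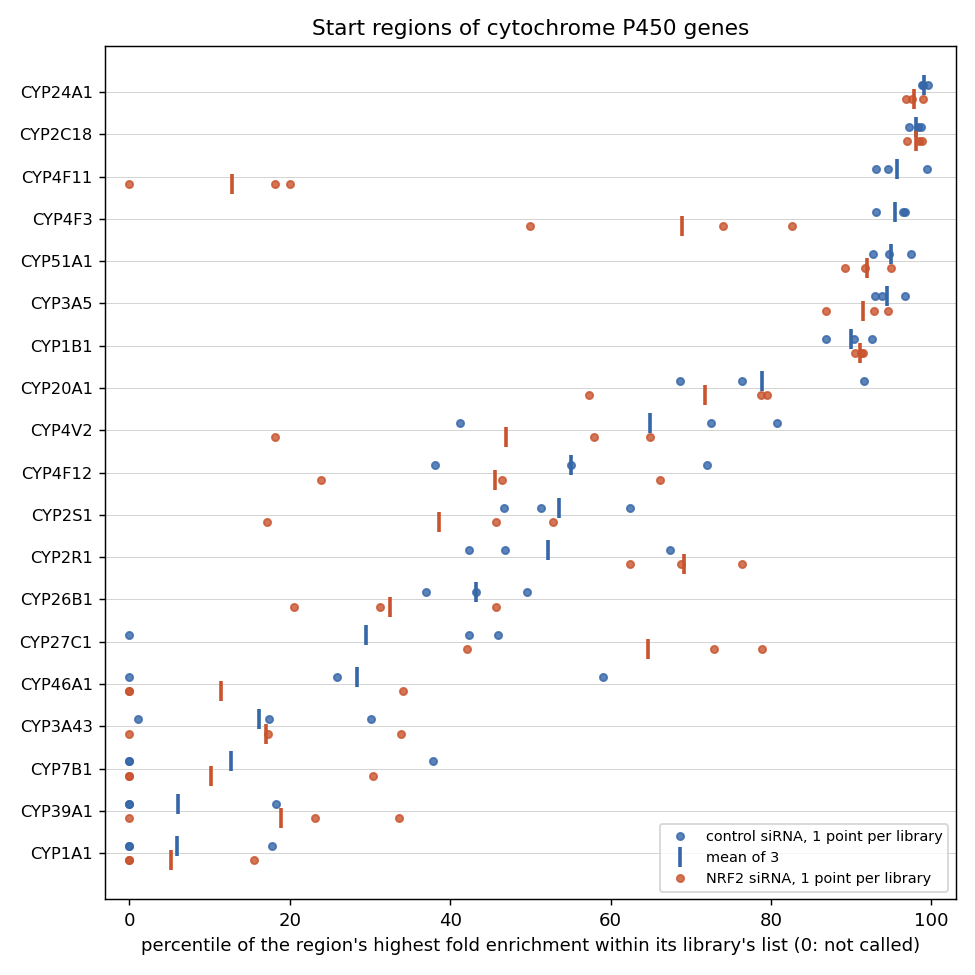
For cytochrome P450 genes with a start called in at least 1 library (y axis), points give the percentile of the start region within each library's list (x axis, 0 for not called), with control siRNA in blue, NRF2 siRNA in red and vertical marks for the mean of 3. The groups are far apart at CYP4F11 (means 95.7 and 12.7) and at CYP4F3 (95.4 and 68.8).

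Ordered by mean control percentile, the start regions ran from CYP24A1 at 99.1 through CYP2C18 at 98.1, CYP4F11 at 95.7 and CYP4F3 at 95.4. Next came CYP51A1 at 95.0, CYP3A5 at 94.5 and CYP1B1 at 90.0, and the order ended with CYP1A1 at 5.93. Each value is that of the highest peak in a region, and the regions differ in length. The values of CYP24A1 lay above all those of CYP2C18, and those of CYP3A5 above all those of CYP1B1. All other neighbours in the order overlapped in their 3 control values. The median percentile of the called cytochrome P450 regions was 52.9, 55.1 and 52.2 with control siRNA and 59.1, 61.5 and 62.4 with NRF2 siRNA. Because each library's median runs over the regions it called, the sets differ between libraries.

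P450 enzymes of the endoplasmic reticulum take electrons from POR, and many P450 genes answer to ligand-activated receptors. Of 10 genes for electron donors and partners, 7 had a start called in all 6 libraries, and of 33 tested regions 1 was lower and 0 were higher (median change of -0.26). Of 14 regulator genes, 8 had a start called in all 6, and of 61 tested regions 3 were lower and 0 were higher (median change of -0.11). These counts stand beside the same backgrounds of 3.39% lower and 2.01% higher. Over both lists, 4 of 94 tested regions were lower, which is near the background share. No result about these genes as a set is drawn from the count. At an unadjusted p under 0.05 (limma), 18 were lower and 5 higher over both lists, and the share of all tested regions at that level was not counted. The 4 lower regions became 0 without control siRNA replicate 2, control siRNA replicate 3 or NRF2 siRNA replicate 2, where 13, 13 and 11 had an unadjusted p under 0.05. They became 2 without control siRNA replicate 1 or NRF2 siRNA replicate 3.

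An intronic region of POR, the P450 reductase gene (chr7:75560213-75569175), was at 94.4, 98.3 and 99.7 with control siRNA and 17.3, 81.3 and 89.5 with NRF2 siRNA. The groups did not overlap and the score fell by 1.48 (SE 0.356, adjusted p = 0.0467). An intronic region of AHR, the aryl hydrocarbon receptor gene that controls CYP1 genes (chr7:17080582-17083939), was at 53.8, 42.2 and 48.5 with control siRNA and was not called with NRF2 siRNA (-1.42, SE 0.325, adjusted p = 0.0395). A region over an exon of RXRA, the shared partner of many nuclear receptors (chr9:137297120-137303456), was at 96.8, 97.7 and 99.1 with control siRNA and 71.1, 73.4 and 77.6 with NRF2 siRNA (-1.35, SE 0.206, adjusted p = 0.0122). An intronic region of PPARA, a receptor that induces CYP4A genes (chr22:46566101-46569531), was at 69.6, 56.1 and 66.2 with control siRNA and was not called with NRF2 siRNA (-1.84, SE 0.317, adjusted p = 0.0169). At none of these 4 did the groups overlap. The AHR and PPARA regions reached the filter of 3 libraries through the control libraries alone, so their percentiles could not overlap. No result is drawn from the adjusted p-values of these regions of AHR and PPARA.

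The siRNA 28 pair and the siRNA 30 pairs are compared by their changes only, since siRNA 28 is represented by 1 pair of libraries. These changes do not show whether the siRNAs act alike. The median change over the 51 tested regions was 0.0087 for the siRNA 28 pair and -0.17 and -0.11 for the siRNA 30 pairs. Regions called in neither library of the siRNA 28 pair enter its median with a change of 0.25, which comes from the tied score alone. The medians are therefore not compared further.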

How the data were processed

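Single-end reads were aligned by the authors to hg19 (Bowtie2 2.2.6), reads of mapping quality under 20 were removed, broad peaks were called per library (MACS2 2.1.0.20151222) and blacklisted regions were taken out. The deposited lists give, for each peak, the fold enrichment as a ratio and the q-value as −log10. They hold no read counts. The study gives read totals per library, lower in replicate 1 of both groups, which do not give the reads behind a peak, so no interval that needs them is given. Whether an input served as background is not given in the sources used here, and the 2 input samples were not analysed.

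Peaks were merged at 1 bp of overlap, and genes and coding starts came from GENCODE 44 lifted to GRCh37, in which 24 chromosomes with peaks were found and 0 regions ran past an end. Of 202238 peaks, 136 lay elsewhere and were not matched to genes. Regions called in at least 3 of 6 libraries were ranked within a library by highest fold enrichment, uncalled regions tied lowest. Normal scores were compared with limma 3.58.1 in R 4.3.3, with Benjamini-Hochberg adjustment over 32673 regions and a threshold of 0.05. The step was tested on simulated scores of these regions with 200 shifted: 77% of shifts of 2 were recovered with 5 false calls, and 0% of shifts of 1. Members and lists were chosen with earlier results of these data known. Named were regions past the threshold, the 5 largest falls and rises, one-sided regions and the start region of each member with a called start. Further regions whose groups did not overlap, starts of neighbouring genes and the called regions of partner genes were named after their values were seen. Results for 1 member gene are not reported here, and counts include it.

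Deviations from the group means correlated between libraries of the same number (r = 0.398, 0.199 and 0.363 across regions). Libraries of different number were not compared, and replicate 1 of both groups differs from the others in batch and depth. Whether the replicate numbers in the sample titles pair the libraries was therefore not settled. Pairs are formed here by number alone. The study describes the replicates as independent experiments, which the labels do not state. Other steps used Python 3.11.15 and scipy 1.17.1.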

Additional observations from a re-analysis of the deposited data

How the results depend on the processing

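The peak lists give no counts, so whether an uncalled region lacked the mark or the reads to show it was not tested. In simulation, with 200 of 32673 regions shifted, the test recovered 0% of score changes of 1. In the data 3.39% of tested regions were called lower and 2.01% higher, and CYP4F3 passed the threshold at -1.06. The simulated share therefore does not give the recovery in these data. Most cytochrome P450 changes were smaller than 1.

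The 3 lower and 0 higher cytochrome P450 regions became 5 and 1 with the replicate block, 4 and 2 with the replicate block and equal list lengths (23885 peaks each), 2 and 1 with equal list lengths alone, 3 and 2 with the trend and robust options of eBayes, 5 and 1 in replicates 2 and 3 only, and 6 and 4 within 100 kb of the genes. Among regions called in all 6 libraries 1 was lower. Leaving out 1 library gave 0 to 4 lower (0 without control siRNA replicate 2, 1 without control siRNA replicate 1 or 3 or NRF2 siRNA replicate 2 or 3, 4 without NRF2 siRNA replicate 1) and 0 to 1 higher (1 without NRF2 siRNA replicate 1).

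For partner and regulator genes, the 4 lower and 0 higher regions became 8 and 1 with the replicate block, 10 and 0 with the block and equal list lengths, 7 and 0 with the trend and robust options, 6 and 3 in replicates 2 and 3 only, 1 lower among regions called in all 6 libraries and 2 at a q-value of at most 1e-05. Leaving out 1 library gave 0 to 5 lower and 0 higher.

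The 12 genes with a start called in every library became 5 at a q-value of at most 1e-05 and 12 to 14 with 1 library left out. The count of regions called in all 3 libraries of a group and 0 of the other, 4 for control and 0 for NRF2 siRNA, became 2 and 0 with equal list lengths, 1 and 0 at a q-value of at most 1e-05, and 8 and 2 in replicates 2 and 3 only. Leaving out 1 library gave 4 to 7 (7 without control siRNA replicate 1) and 0 to 2 (2 without NRF2 siRNA replicate 1, 1 without control siRNA replicate 3).

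For the 25 named regions, 323 of 357 alternative values kept their sign and side of the threshold, 12 gained the call, 12 lost it and 10 changed sign. Signs changed only for small changes at starts. That of CYP1B1 was -0.029 with the length-weighted mean fold, -0.022 in replicates 2 and 3 only and -0.0031 to 0.135 with 1 library left out. That of CYP3A43 was 0.118 in replicates 2 and 3 only and -0.071 to 0.084 with 1 library left out. With 1 library left out, that of CYP2C18 ran from -0.052 to 0.102 and that of CYP26B1 from -0.399 to 0.209. The replicate block added the calls of the CYP46A1 upstream region (adjusted p = 0.0334), the region between CYP4F8 and CYP4F3 (0.0308) and CYP27C1 (0.0167, limma). The CYP46A1 upstream region and the region between CYP4F8 and CYP4F3 reached the test through control libraries alone. No result is drawn from their added calls. Over all alternatives, the adjusted p of limma ran from 9.66e-05 to 0.0504 at CYP4F11, from 0.00252 to 0.119 at CYP4F3 and from 0.00953 to 0.166 at CYP19A1. The cause of these shifts was not tested.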
